A study of Mus musculus with 6 samples.

Results

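Alveolar type 2 (AT2) cells of the developing mouse lung fell into a larger cluster and a smaller one, and the smaller one, AT2-Lyz1+, is described here. Its members were the 1482 cells that the authors' deposited annotation places in that cluster, 2.40% of the 61839 annotated cells of 34 types, beside 4673 cells of the larger cluster, called AT2 below. The cells came from dissociated whole lungs of 36 C57BL/6 mice, 6 for each age and oxygen level. Normoxic mice breathed room air (21% O2) and hyperoxic mice breathed 85% O2 from the day of birth, and lungs were taken on postnatal day 3 (P3), 7 (P7) or 14 (P14). Hyperoxia of this kind slows the division of the lung into alveoli and serves as a model of bronchopulmonary dysplasia, the lung disease of preterm infants. Cells were labelled with 1 DNA barcode per mouse (MULTI-seq), pooled, and profiled with 10x 3' chemistry, which counts transcripts at their 3' end by unique molecular identifiers (UMIs). One pool held P3 and P7 mice together in 2 libraries and the other 4 pools held a single age each, every pool with 3 normoxic and 3 hyperoxic mice of an age. Nursing dams were rotated between the oxygen levels, so that the dams of the control pups had breathed hyperoxic air too.

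AT2 cells secrete surfactant, the lipid and protein film that lowers surface tension in the alveoli, store it in lamellar bodies, and give rise to the thin alveolar type 1 (AT1) cells through which gas is exchanged. They also secrete lysozyme, an enzyme that cuts the cell wall of bacteria. Mice carry a pair of neighbouring lysozyme genes, Lyz1, known from Paneth cells of the gut, and Lyz2, known from macrophages, neutrophils and AT2 cells. Acoxl, the third gene that marks the cluster, encodes a protein related to the acyl-CoA oxidases of fatty acid breakdown.

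Both lysozyme genes lie on the minus strand of chromosome 10 in the GRCm38 genome, Lyz1 at chr10:117287797-117292868 and Lyz2 at chr10:117277331-117282321. Part of their promoters is shown because the pair is so alike in sequence while Lyz1 alone marks the cluster. In the RefSeq promoter sequences (GRCm38.p6) a stretch of 76 bases, from 136 to 61 bases before the RefSeq start, was shared at 65 positions (85.5%), and the 11 positions that differ are in capitals. The Lyz1 stretch lies at chr10:117292929-117293004 and that of Lyz2 at chr10:117282333-117282408, both given 5' to 3' on the minus strand. The RefSeq start of Lyz2 lies inside the gene bounds given above, which are those of GENCODE.
Lyz1: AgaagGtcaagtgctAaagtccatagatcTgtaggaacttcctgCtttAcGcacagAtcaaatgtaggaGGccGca
Lyz2: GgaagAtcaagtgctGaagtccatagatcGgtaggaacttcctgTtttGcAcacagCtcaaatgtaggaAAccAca
The transcripts are alike as well. Of the 1214 windows of 50 bases in the Lyz1 transcript, 16.1% also occur in the Lyz2 transcript, and among the windows of its last 400 bases, from which a 3' library reads, 19.1%. Reads from such windows can be assigned to either gene or dropped, so the levels of both genes carry that uncertainty.

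Members were spread over all 36 mice, 307 cells in normoxia and 281 in hyperoxia at P3, 233 and 255 at P7, and 272 and 134 at P14. Comparisons were made on counts summed per mouse in the 34 mice with at least 10 members, which leaves 5 hyperoxic mice at P7 and 5 at P14. In these 34 mice the members of a mouse held 116775 to 942950 UMIs in all. The cells carried the defining markers of AT2 cells. After cells had been thinned to 1000 UMIs each, so that cells of unequal depth could be compared, Sftpc was seen in 100% of members, Sftpb in 99.5%, Sftpa1 in 98.4% and Slc34a2 in 95.1%. Free RNA from burst cells adds UMIs of abundant genes to all droplets. General capillary endothelial cells (annotated Cap, gCap below) should lack these genes. In 1500 of them, drawn at random from the 5419 of 6096 with at least 1000 UMIs, the thinned shares were 64.5% for Sftpc, 3.67% for Sftpb, 6.00% for Sftpa1 and 2.33% for Slc34a2. At full depth the median was 9562 UMIs per AT2-Lyz1+ cell, 9297 per AT2 cell and 2623 per gCap cell. A UMI of Ptprc, Pecam1 or Col1a1, the defining genes of leukocytes, endothelium and fibroblasts, was found in 21.8% of normoxic and 23.0% of hyperoxic members, and 17 members carried a cell barcode that also occurs in another library.

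The 2 clusters differed in Lyz1 and little else. Levels are given as CPM, a gene's UMIs scaled to a common total for every mouse. Because the cells were clustered on these same values, the difference is a description and was not tested. Among the 2260 genes with a mean of at least 50 CPM in either type, Lyz1 alone differed by more than 1 log2 unit, at 10267 CPM in AT2-Lyz1+ cells and 458 CPM in AT2 cells. Its mean log2 difference within mice, on log2(CPM + 10), was 5.35 ± 1.37 (SD, n = 34 mice). It was higher in AT2-Lyz1+ cells in all 34 mice. Across the 2260 genes the median difference was -0.03, and the rank correlation of the mean levels was 0.990, as a description over genes of the same libraries.

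At the level of single cells the split was not complete. A Lyz1 UMI was present in 99.7% of members and in 32.9% of AT2 cells, and after thinning in 94.8% and 9.84%, against 1.73% of gCap cells. Members held a median of 86.3 Lyz1 UMIs per 10000, with 10% of them below 16.9 and 10% above 218. Of the AT2 cells 3.55% lay at or above that lower bound, and 5 members held no Lyz1 UMI at all. Members carried 85.8% of all Lyz1 UMIs in the lung data, and AT2 cells 9.25%.

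A small set of other genes leaned the same way. Fabp5, a fatty acid binding protein, was higher by 0.39 ± 0.23 log2 units (SD) in all 34 mice. Acoxl was higher by 0.53 ± 0.47 and Spink5, a protease inhibitor, by 0.34 ± 0.30, each in 30 of 34 mice. Chil1, a chitinase-like secreted protein, was higher by 0.31 ± 0.25 in 31 mice, and Col6a1, a chain of collagen VI, by 0.28 ± 0.25 in 29. Retnla, Lrg1 and Hdc stood high on average, by 0.46, 0.44 and 0.34, but in only 25 of 34 mice each. Lower in the cluster were Cyr61, a matrix protein induced by stretch, at -0.91 ± 0.68, and Igfbp7 at -0.59 ± 0.40, each in 30 mice. Npnt and Timp3, which belong to the epithelial matrix, were lower in 31 mice each, by -0.50 and -0.48. Of the 9 AT1 markers with at least 10 CPM none was higher in the cluster and 9 were lower, with a median of -0.29. Of 14 genes of the response to tissue dissociation 13 were lower and 1 higher, with a median of -0.22. Of 13 genes of the transitional state between AT2 and AT1 cells 12 were lower and 1 higher, with a median of -0.27. Over the 7281 genes with at least 10 CPM, 2005 were higher and the median was -0.05. The surfactant genes stood level between the types, 7 of 11 higher with a median of 0.04.

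**Figure D1:**
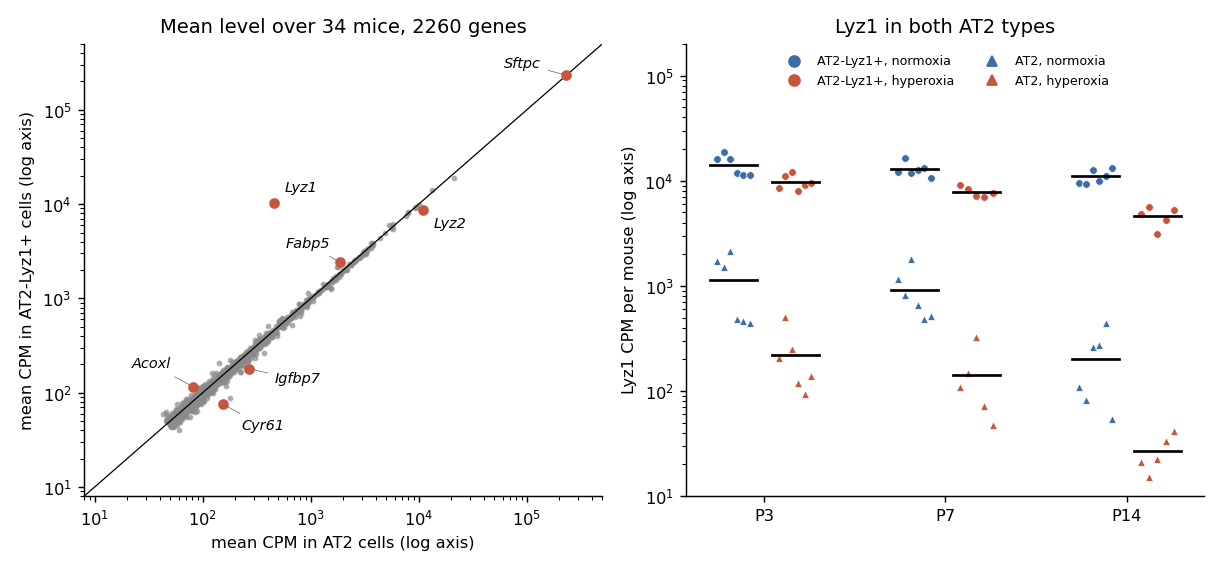
Left, mean CPM of 2260 genes in AT2 cells (x, log axis) and AT2-Lyz1+ cells (y, log axis) over 34 mice, with the line of equality; Lyz1 is the one gene more than 1 log2 unit away from it. Right, Lyz1 CPM (log axis) of each mouse by age and oxygen in AT2-Lyz1+ cells (circles) and AT2 cells (triangles), with bars at the group means; hyperoxic mice lie below the normoxic ones in both types at P7 and P14 and overlap them at P3, and the types do not overlap.

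The abundance of AT2-Lyz1+ cells was compared next. In dissociated tissue a share depends on what the digestion frees as well as on the lung. The cells were clustered with Lyz1 among the genes used, so a change in the share and a change of Lyz1 per cell cannot be told apart. As a percentage of all cells, the normoxic P3 mice ranged from 1.08 to 3.91 with a median of 3.22, and the hyperoxic ones from 1.87 to 3.67 with a median of 2.53. At P7 the range was 2.17 to 2.85 (median 2.24) in normoxia and 2.30 to 4.80 (median 3.00) in hyperoxia. At P14 it was 1.57 to 2.72 (median 1.96) in normoxia and 0.774 to 2.57 (median 1.36) in hyperoxia. The groups overlapped at every age. The hyperoxic mean minus the normoxic mean was -0.15 percentage points on day P3, 0.79 points on P7 and -0.60 points on P14, and none passed the exact two-sided permutation test of 6 against 6 mice (adjusted p over 34 types and 3 ages = 0.893, 0.159 and 0.233). Against epithelial cells in place of all cells the P7 difference turned to -0.76 points and the P14 difference passed, at -5.75 points (exact permutation test, adjusted p = 0.0487). The P7 difference leaned on hyperoxic mouse 5, which held 6 members among 125 cells, and was 0.47 points without it. From P7 to P14 the share in hyperoxia went from a mean of 3.16% to 1.44%, with an adjusted p of 0.0509 in the same exact permutation test, while edgeR on the numbers of cells called it (log2 fold -1.03, adjusted p = 0.0047). No pool held P14 mice together with another age, so age and pool cannot be told apart in this fall.

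Counted against both AT2 types together, the cluster made up 28.3% ± 7.70 (SD, n = 6) in normoxia and 23.9% ± 5.55 in hyperoxia at P3, 29.8% ± 3.84 and 25.3% ± 6.99 at P7, and 21.5% ± 3.22 and 16.9% ± 6.95 at P14. At no single age did the oxygen groups differ in the exact permutation test (adjusted p = 0.273 at each age). The mean was lower in hyperoxia in each of the 6 pairs of age and pool, by 4.52 points on average, and a permutation of the oxygen labels within pools over all ages, chosen after these values were seen, gave p = 0.0285. In normoxia the share fell from P7 to P14 by 8.27 points with no overlap, 25.2 to 34.3% against 17.0 to 25.0% (exact permutation test, p = 0.00216, adjusted over 3 pairs of ages 0.00649). That denominator was also chosen after seeing the data, and since no pool held P14 mice together with another age, age and pool cannot be told apart there. Membership rests on Lyz1 in all of these shares too, so fewer cells of the type and less Lyz1 per cell cannot be told apart in them.

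**Figure D2:**
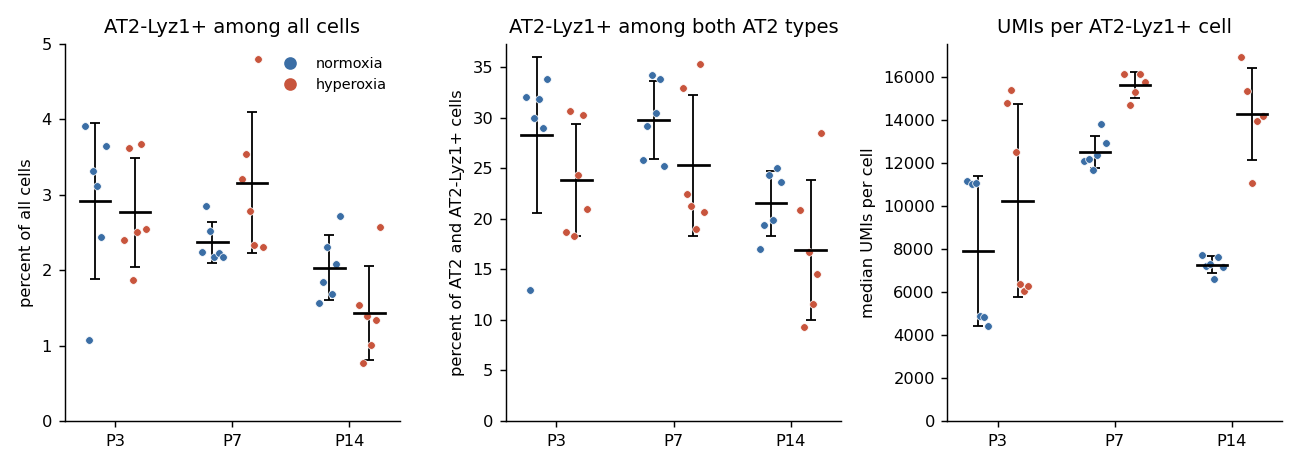
AT2-Lyz1+ cells as a percentage of all cells (left) and of both AT2 types (middle), and the median number of UMIs per AT2-Lyz1+ cell (right), for each mouse by age; points are mice, bars the group mean with its SD. Shares overlap between oxygen levels at every age, and at P14 no hyperoxic mouse overlaps the normoxic mice in UMIs per cell.

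More UMIs were counted per member in hyperoxic lungs. The median number of UMIs per cell ranged from 6608 to 7721 in the 6 normoxic P14 mice, with a median of 7248, and from 11065 to 16890 in the 5 hyperoxic ones, with a median of 14150. At P7 the ranges were 11670 to 13788 and 14691 to 16135. The groups did not overlap at either age, and each difference had the smallest p this design allows (exact permutation test, p = 0.00216, adjusted over 3 ages 0.00325). At P3 the pools differed in depth, 4402 to 6379 in one and 10986 to 15372 in the other, and the groups overlapped (exact permutation test, adjusted p = 0.318). Within either P3 pool the 3 hyperoxic mice lay above the 3 normoxic ones. When oxygen labels were exchanged only between mice of the same pool (a replicate block), the P3 difference of 2336 UMIs passed the exact permutation test (adjusted p = 0.005). In AT2 cells the mouse medians averaged 7435 UMIs in normoxia and 9045 in hyperoxia at P3, 11500 and 14602 at P7, and 6937 and 13407 at P14. The cause of these differences in UMIs was not tested. The fits below scale each mouse to its own total.

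Lyz1 itself was lower under hyperoxia in the cells named for it. At P3 Lyz1 ranged from 11246 to 18686 CPM in normoxic mice (median 13932) and from 7932 to 12036 CPM in hyperoxic ones (median 9354). At P7 the ranges were 10726 to 16293 (median 12403) and 7006 to 9170 (median 7666), and at P14 9240 to 13273 (median 10564) and 3126 to 5682 (median 4844). The groups overlapped at P3 and were apart at P7 and P14. As log2 folds of hyperoxia over normoxia in edgeR, P3 gave -0.50 ± 0.13 (SE), P7 gave -0.65 ± 0.13 and P14 gave -1.21 ± 0.14. It was negative in each of the 6 pairs of age and pool. The decrease was larger at P14 than at P3, with a difference of -0.70 ± 0.18. Cells were assigned to the clusters with Lyz1 among the genes used, so less Lyz1 per cell and a shift of cells between the clusters cannot be told apart. For that reason these Lyz1 values are a description with no test. In both types summed, Lyz1 had a mean of 4068 CPM in normoxia and 1989 CPM in hyperoxia.

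In AT2 cells, where Lyz1 was sparse, its mean over all ages was 746 CPM in normoxia and 123 CPM in hyperoxia. There the normoxic values depended on the pool. At P3 the 3 mice of the pool shared with P7 stood at 1507 to 2145 CPM and the 3 mice of the other pool at 445 to 484 CPM. The proportional decrease was smaller in AT2-Lyz1+ cells than in AT2 cells by 1.81 ± 0.19 log2 units (34 mice, each giving both types). Lyz1 itself separates the types, so this value is a description with no test.

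Few genes responded differently in the 2 types. The interaction of type and oxygen was called for 6 of 8056 genes (0.0745%), 4 higher in AT2-Lyz1+ cells (0.0497%) and 2 lower (0.0248%). Lyz1 is among the 4 and, as the gene that separates the types, counts as no result there. The log2 effect was higher in AT2-Lyz1+ than in AT2 cells for Lyz2 (by 0.39 ± 0.07), Sftpa1, a surfactant protein (0.25 ± 0.05), and Fabp5 (0.23 ± 0.05). Igfbp7, an insulin-like growth factor binding protein, and S100a6, a calcium-binding protein, were relatively lower in AT2-Lyz1+ cells, by -0.68 ± 0.08 and -1.12 ± 0.18. Fabp5, Igfbp7 and S100a6 are among the genes whose levels differ most between the types, which were clustered on such values. For these genes a change per cell and a shift of cells between the types cannot be told apart. For Igfbp7 the means over all ages went from 205 to 148 CPM in AT2-Lyz1+ cells and from 258 to 323 CPM in AT2 cells. At P3, P7 and P14 they went from 182 to 100, 208 to 123 and 225 to 232 CPM in AT2-Lyz1+ cells. In AT2 cells they went from 259 to 190, 274 to 311 and 242 to 470 CPM. Lyz2 went from 8764 to 8424 CPM in AT2-Lyz1+ cells, where its change was not called, and from 12686 to 9173 CPM in AT2 cells. At P14 alone its means were 9580 and 11400 CPM in AT2-Lyz1+ cells and 16106 and 11578 CPM in AT2 cells. The Sftpa1 difference was not called without possible doublets (0.16, adjusted p = 0.423) or in mice with at least 25 cells (0.18, adjusted p = 0.0798). That of Fabp5 was not called without hyperoxic P14 mouse 4 (adjusted p = 0.0965) or 6 (adjusted p = 0.0813), and that of S100a6 not in thinned cells (-0.70, adjusted p = 0.798). Without the mouse as a block 1 gene was called, Lyz1, and with 10 cells drawn per mouse none was. DESeq2 gave Fabp5 0.22 (adjusted p = 0.0505), and for Igfbp7 and S100a6 it gave -0.66 and -0.97 with no adjusted p, as for 7653 of the 8056 genes.

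Over all ages hyperoxia changed 1528 of 5472 tested genes in AT2-Lyz1+ cells (27.9%), 751 higher (13.7%) and 777 lower (14.2%). A gene is called changed at an adjusted p below 0.05 in edgeR's quasi-likelihood test, provided that 10% or more of the cells of either oxygen level held a UMI of it. Age by age, the P3 comparison called 362 genes (6.62%), 217 higher (3.97%) and 145 lower (2.65%). The P7 comparison called 506 (9.25%), with 285 higher (5.21%) and 221 lower (4.04%), and the P14 comparison 1217 (22.2%), with 638 higher (11.7%) and 579 lower (10.6%). The ages share no mice, and 134 genes were called at all 3, of which 133 moved in 1 direction, 98 higher and 35 lower. Depth per cell was highest in hyperoxic mice, and with every cell thinned to 1000 UMIs 581 genes could be tested and 149 of them were called over all ages (25.6%), 135 of them among the 1528. The other genes were too sparse for that comparison. The counts of list members over all ages below stand against the 13.7% and 14.2% of all tested genes called higher and lower.

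The gene with the smallest adjusted p was Ftl1, the light chain of the iron store ferritin. It ranged from 1576 to 2200 CPM in normoxic and 4460 to 5510 CPM in hyperoxic mice at P3, from 1791 to 2125 and 3639 to 4887 CPM at P7, and from 1447 to 1693 and 2793 to 3808 CPM at P14. No age showed any overlap, and the change over all ages was 1.26 ± 0.06 (adjusted p = 1.84e-22). Ftl1 belongs to the targets of NRF2, the factor that drives the enzymes against oxidants. Of 34 listed NRF2 and glutathione genes 20 passed the filter on low counts, and 19 of these were called higher and 0 lower, where 13.7% of all tested genes were called higher. The median of the 20 was 0.64, against -0.02 over all genes. A gene can pass that filter through the group where it is high, so the count stands for the 20 only.

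Among them Akr1b8, an aldo-keto reductase, rose most. It was at 2.57 to 10.9 CPM in normoxia (median 7.56) and 20.1 to 37.4 CPM in hyperoxia (median 31.8) at P3, 3.18 to 16.6 (median 7.85) and 11.9 to 90.3 CPM (median 57.3) at P7, and 0 to 23.4 (median 11.9) and 36.2 to 102 CPM (median 47.9) at P14. The groups were apart at P3 and P14 and overlapped at P7, and the change over all ages was 2.33 ± 0.25 (adjusted p = 2.76e-10). Gsta3, a glutathione transferase, was at 0 to 10.8 CPM in normoxia and 25.1 to 64.6 CPM in hyperoxia at P3, with no overlap at any age, and rose by 1.82 ± 0.17 over all ages. Me1, malic enzyme, which supplies NADPH, rose by 1.0 ± 0.09, Gclc and Gclm, the subunits of the enzyme that makes glutathione's precursor, by 0.74 and 0.44, and Txnrd1, thioredoxin reductase, by 0.50. At P3, P7 and P14 11, 13 and 12 of the 20 were called higher and 0 lower, where 3.97%, 5.21% and 11.7% of all tested genes were called higher.

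NRF2 binds the antioxidant response element, whose core was searched for as TGACNNNGC on both strands of the RefSeq promoters (300 bases a gene, GRCm38.p6). Only the bases of each promoter that lie before the RefSeq start were searched. It was present in 3 of the 14 called list genes that have a promoter in that table, in 10.1% of all 27025 promoters and in 12.4% of those of tested genes. These 3 matches are shown with 15 bases on either side, 5' to 3' on the strand that holds the match, with the match in capitals. A match is no proof of a site. Gclm lies at chr3:122245408-122245446 on the minus strand, Gsta3 at chr1:21240449-21240487 on the plus strand, and Prdx1, a peroxiredoxin, at chr4:116685451-116685489 on the minus strand.
Gclm: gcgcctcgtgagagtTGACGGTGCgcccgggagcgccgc
Gsta3: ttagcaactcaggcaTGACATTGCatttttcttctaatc
Prdx1: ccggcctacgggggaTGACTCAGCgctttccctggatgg

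Genes of the p53 response, which follows DNA damage, made a second group. Gdf15, a secreted stress cytokine, lay between 0 and 10.9 CPM in normoxia and 10.7 and 81.6 CPM in hyperoxia at P3, between 4.16 and 31.8 and between 22.8 and 67.9 CPM at P7, and between 4.97 and 37.1 and between 17.3 and 251 CPM at P14. The groups touched or overlapped at each age, and Gdf15 rose by 2.34 ± 0.32 over all ages (adjusted p = 1.26e-07). Phlda3, an inhibitor of AKT, rose by 3.11 ± 0.37 and Cdkn1a, the inhibitor of cyclin-dependent kinases known as p21, by 1.14 ± 0.15. Phlda3 averaged below a log2 CPM of 5 and was not called at every age. Such a gene can pass the filter on low counts through the group where it is high. Bax, Aen and Ccng1 rose as well, by 0.73, 1.02 and 1.31. Bbc3 and Plk2 fell, by -0.74 and -0.65. That makes 6 higher and 2 lower of 12 tested, with a median of 0.33, where 13.7% of all tested genes were called higher and 14.2% lower. Asns and Phgdh, which make asparagine and serine and belong to the integrated stress response, rose by 1.95 ± 0.25 and 2.40 ± 0.26, while Atf4, the factor that drives them, fell by -0.44; of 15 tested genes of that list 3 were higher and 2 lower, a share near that of all tested genes.

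Among secreted defence genes Lcn2 and Slpi were called higher at P7 and P14, and Mif at every age. Lcn2, lipocalin 2, which binds bacterial iron carriers, ranged from 911 to 2170 CPM in normoxia (median 1099) and from 840 to 1466 CPM in hyperoxia (median 1242) at P3. At P7 it ranged from 696 to 1542 CPM (median 924) and from 1169 to 6944 CPM (median 2080), and at P14 from 840 to 2273 CPM (median 909.7) and from 5425 to 6562 CPM (median 6267). The groups overlapped at P3 and P7 and were apart at P14. On the log2 scale Lcn2 changed by -0.16 ± 0.26 (P3), 1.62 ± 0.27 (P7) and 2.48 ± 0.27 (P14) (adjusted p = 0.791, 2.91e-05 and 1.6e-09). Hyperoxic mouse 3 held the highest P7 level, and without it the P7 change was 1.0 ± 0.22 (adjusted p = 0.0021).

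Slpi, an inhibitor of neutrophil elastase, ranged from 21.9 to 164 CPM in normoxia (median 44.0) and 67.5 to 167 CPM in hyperoxia (median 96.6) at P3. At P7 the ranges were 12.3 to 63.7 CPM (median 28.3) and 68.8 to 300.0 CPM (median 163), and at P14 10.6 to 104 CPM (median 39.9) and 255 to 747 CPM (median 483). Normoxic and hyperoxic mice were apart at P7 and P14, with log2 changes of 0.71 ± 0.37 for P3 (adjusted p = 0.262), 2.30 ± 0.37 for P7 and 3.54 ± 0.37 for P14. Mif, macrophage migration inhibitory factor, did not overlap at any age. It ranged from 184 to 237 CPM against 308 to 445 CPM at P3, from 213 to 340 against 408 to 703 CPM at P7, and from 162 to 244 against 650.0 to 1268 CPM at P14, and rose by 0.90, 1.01 and 2.34. Of the 13 tested defence genes 5 were higher and 1 lower over all ages, and the 1 that fell was Lyz1, a gene the clustering used.

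**Figure D3:**
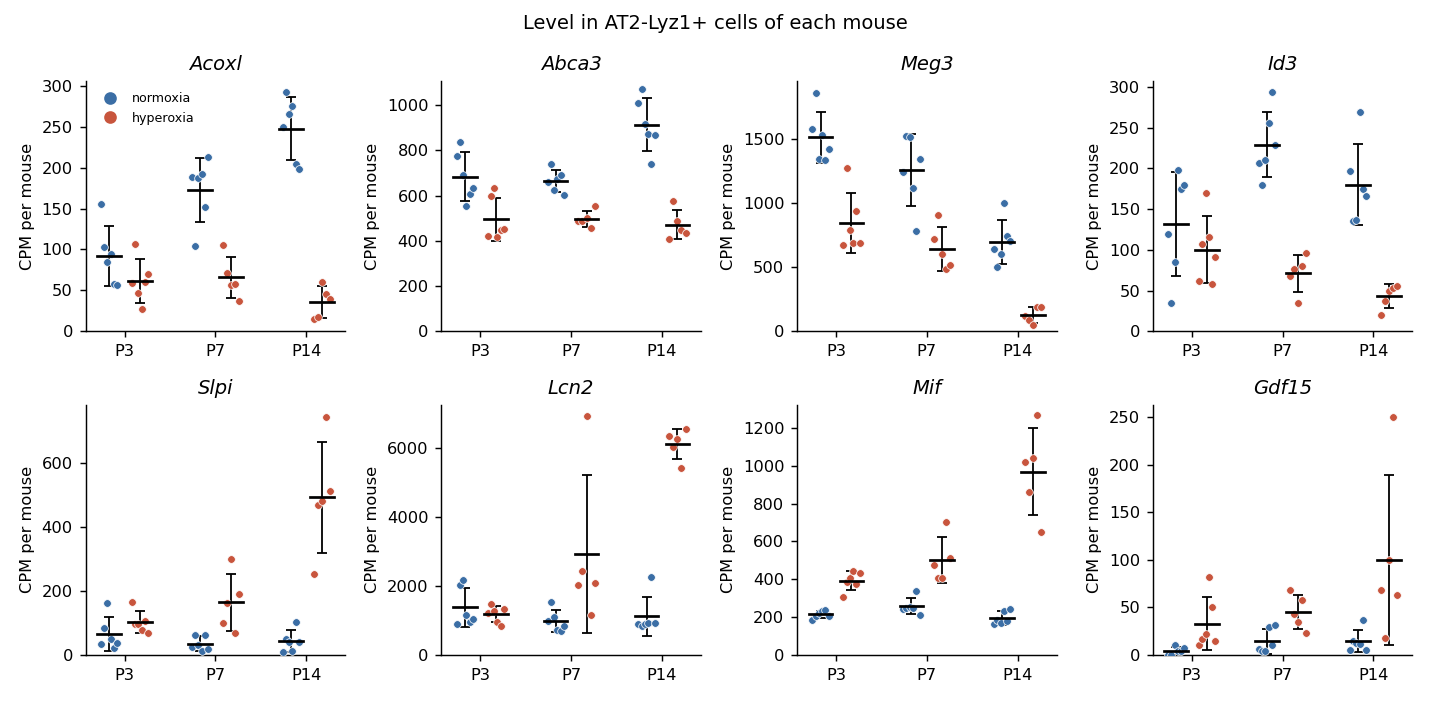
CPM of 8 genes in the AT2-Lyz1+ cells of each mouse by age (x) and oxygen (color); points are mice, lines the group mean and its SD. Over all ages Acoxl, Abca3, Meg3 and Id3 were called lower in hyperoxia and Slpi, Lcn2, Mif and Gdf15 higher; at P3 the groups of Lcn2 overlap, with a log2 change of -0.16.

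Genes of surfactant handling split. Sftpc, the most specific surfactant protein gene of AT2 cells, ranged from 236284 to 244684 CPM in normoxia (median 243308) and from 228657 to 239974 CPM in hyperoxia (median 230378) at P3. At P7 the medians were 264055 and 238634 CPM and at P14 220874 and 204107 CPM, with overlapping groups at every age. Sftpc was not called, at -0.06 ± 0.04 (adjusted p = 0.283), and Sftpb and Sftpd stood at -0.05 and 0.01, also not called. With every cell thinned to 1000 UMIs Sftpc was called lower, at -0.20.

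Of 11 tested surfactant and lamellar body genes 6 were lower and 1 higher (Ctsh, 0.22), with a median of -0.24, where 14.2% of all tested genes were called lower. Abca3, the pump that fills lamellar bodies with phospholipid, ranged from 554 to 839 CPM against 418 to 634 CPM at P3, from 605 to 739 against 455 to 552 CPM at P7, and from 739 to 1074 against 409 to 578 CPM at P14. Its groups were apart at P7 and P14, and it fell by -0.56 ± 0.08 over all ages (adjusted p = 1.16e-07). Lpcat1, which makes the dipalmitoyl lipid of surfactant, fell by -0.72 ± 0.08. Napsa, an aspartic protease that processes surfactant proteins, fell by -0.35, Lamp3, of the lamellar body membrane, by -0.26, and Sftpa1 by -0.40.

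Acoxl, a marker of the cluster, was lower under hyperoxia at P7 and P14. It ranged from 56.5 to 156 CPM (median 89.998) against 27.2 to 107 CPM (median 59.2) at P3, from 105 to 213 CPM (median 188) against 37.5 to 106 CPM (median 58.2) at P7, and from 199 to 292 CPM (median 258) against 15.1 to 59.7 CPM (median 39.8) at P14. The groups overlapped at P3 and, narrowly, at P7 and were apart at P14. Acoxl changed by -0.47 ± 0.25 for P3 (adjusted p = 0.282), -1.31 ± 0.21 for P7 and -2.82 ± 0.27 for P14 (adjusted p = 2.25e-05 and 3.57e-11). The cells were clustered on such values, so within the cluster a change per cell and a shift of cells between the types cannot be told apart. In AT2 cells the P14 mean went from 201 to 18.4 CPM. With both AT2 types summed, which leaves the split aside, it went from 210 CPM in normoxia to 21.1 CPM in hyperoxia. Of 15 tested genes of fatty acid and phospholipid synthesis 7 were lower and 2 higher, with a median of -0.29. The list holds Acoxl itself, and without it 6 of 14 were lower, with a median of -0.25. Acly, which makes acetyl-CoA in the cytosol, fell by -0.64, Chka, choline kinase, by -0.52 and Fasn, fatty acid synthase, by -0.29. One of the 2 higher genes, Me1, is also an NRF2 target.

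Of 18 AT2 identity genes 8 were lower, 1 was higher (Chil1) and 9 were not called, and of 16 Wnt, FGF and BMP genes 6 were lower, 0 higher and 10 not called, where 14.2% of all tested genes were called lower. Etv5, a factor downstream of FGF signalling that maintains AT2 cells, ranged from 206 to 245 CPM against 132 to 168 CPM at P3, from 230 to 328 against 137 to 189 CPM at P7 and from 246 to 381 against 139 to 192 CPM at P14, with no overlap at any age, and fell by -0.72 (adjusted p = 1.8e-10). Nkx2-1 and Cebpa, lineage factors of the lung epithelium, fell by -0.45 and -0.53. Id3, Id2 and Id1, targets of BMP signalling, fell by -1.31, -0.69 and -0.63, Spry1, a feedback inhibitor of FGF signalling, by -0.59, and Fgfr2, its receptor, by -0.37. Axin2, a Wnt target that marks AT2 progenitors, was too sparse to test, at 8.56 to 21.9 CPM in normoxia and 3.14 to 27.2 CPM in hyperoxia at P3. Nrp1, a coreceptor for VEGF and semaphorins, fell by -0.75 ± 0.11. Dag1 and Itgb1, matrix receptors, were not called over all ages, at -0.18 and -0.11.

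AT1 markers fell in the cluster. Ager, the receptor that defines AT1 cells, ranged from 809 to 1123 CPM against 444 to 753 CPM at P3, from 710 to 886 against 314 to 424 CPM at P7, and from 550 to 920 against 164 to 378 CPM at P14. No age overlapped, and the change was -1.02 ± 0.09 (adjusted p = 4.9e-12). Col4a3, Akap5, Col4a4 and Hopx fell by -1.23, -1.18, -0.99 and -0.84, and of 9 tested markers 8 were lower, 0 higher and Aqp5 was not called, with a median of -0.84. At the single ages 5 were lower at P3, 1 at P7 (Ager, with a median of -0.43 over the list) and 5 at P14, where 2.65%, 4.04% and 10.6% of all tested genes were. Ager was seen in 44.1% of thinned members and 4.07% of thinned gCap cells. The summed level of the 13 AT1 markers ran from 1170 to 2193 CPM in normoxic and from 679 to 1412 CPM in hyperoxic mice. The parts of free AT1 RNA and of the members' own AT1 transcripts in these levels were not tested. Of the genes of the transitional state between AT2 and AT1 cells, 7 of 12 were higher and 1 lower. Lgals3, galectin 3, rose by 1.39 ± 0.14, Clu, clusterin, by 1.47 ± 0.23 and Krt8, keratin 8, by 0.32, while S100a6 fell by -1.10.

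**Figure D4:**
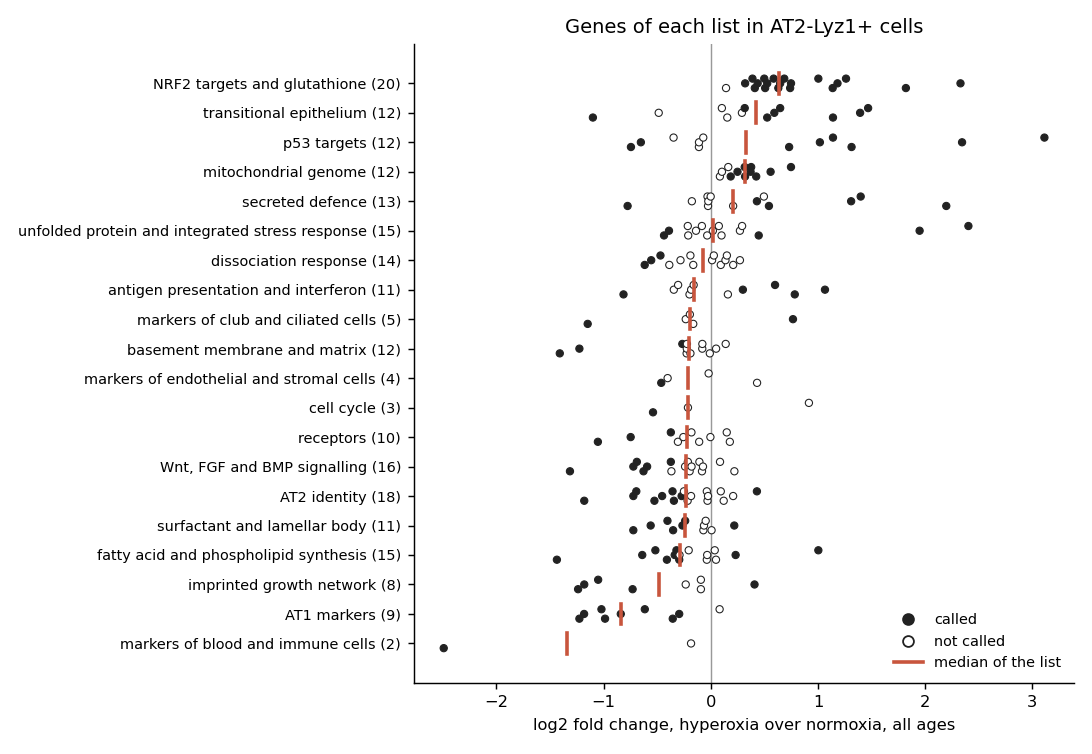
Log2 fold change of hyperoxia over normoxia across all ages (x) for the tested genes of 20 lists in AT2-Lyz1+ cells; filled points are called, open points are not, red lines are list medians, and the number of tested genes follows each name. The list of NRF2 targets has 19 of 20 genes called higher and the AT1 list 8 of 9 called lower.

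Several imprinted genes were lower. Meg3, a maternally expressed long noncoding RNA on chromosome 12 at chr12:109541001-109571726, ranged from 1337 to 1858 CPM against 675 to 1271 CPM at P3, from 779 to 1522 against 481 to 905 CPM at P7, and from 497 to 996 against 49.8 to 187 CPM at P14. The groups were apart at P3 and P14 and overlapped at P7. Meg3 fell by -0.79 ± 0.17, -0.92 ± 0.18 and -2.34 ± 0.21 (adjusted p = 0.00234, 0.000373 and 9.29e-12). Dlk1, a paternally expressed Notch ligand from the same domain, fell by -1.18 ± 0.20, Nnat by -1.05 and Peg3 by -0.73 (-0.41 and not called without the pool shared by P3 and P7, adjusted p = 0.303), while Igf2r, the receptor that clears IGF2, rose by 0.41. Of 8 tested genes of that network 4 were lower and 1 higher. In normoxia 6 of the 8 were lower at P14 than at P3, where 4.95% of all tested genes were, Dlk1 by -3.67 ± 0.34 and Meg3 by -1.18 ± 0.18.

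Other large decreases were in Cthrc1, a collagen triple helix protein (-1.41 ± 0.23), Chia1, an acidic chitinase (-1.31 ± 0.26), Hdc, which makes histamine (-1.26 ± 0.22), Klf2 and Klf4, Kruppel-like factors (-1.25 ± 0.18 and -1.13 ± 0.14), and Traf1, an adaptor of tumor necrosis factor receptors (-1.22 ± 0.16). Other large increases were in Aqp3, an aquaporin that also carries glycerol (2.10 ± 0.23), Kcnk2, a potassium channel (1.84 ± 0.21), Rragd, a GTPase of nutrient sensing at the lysosome (1.82 ± 0.16), Atf5, a factor of mitochondrial stress (1.75 ± 0.20), Cox6a2, a subunit of cytochrome c oxidase (1.68 ± 0.24), and Lrg1, a secreted glycoprotein (1.54 ± 0.16). For Rragd the groups did not overlap at any age, at 7.66 to 21.9 against 26.4 to 110 CPM at P3, 12.1 to 20.8 against 44.0 to 76.4 CPM at P7 and 3.71 to 35.1 against 49.1 to 78.2 CPM at P14. Cox6a2 had its highest values at P7, 91.3 to 292 CPM in hyperoxia against 9.90 to 38.5 CPM in normoxia.

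Of 12 tested genes of the mitochondrial genome 9 were higher and 0 lower, with a median of 0.32; mt-Co2 rose by 0.75 and mt-Nd1 by 0.56. The median percent of mitochondrial UMIs per member, which is also read as a sign of cell quality, was 3.38 to 4.53 in normoxic and 4.36 to 5.02 in hyperoxic mice at P3, 3.44 to 4.29 and 4.54 to 5.70 at P7, and 5.18 to 5.61 and 7.49 to 8.62 at P14. The groups overlapped at P3 only, and the part of cell quality in the results was not tested. The next lists of dissociation, matrix and receptor genes lay near the 27.9% of all tested genes called in either direction. In the dissociation response 0 of 14 were higher and 3 lower (Dusp1, Zfp36 and Junb), in the matrix list 0 of 12 higher and 3 lower, among receptors 0 of 10 higher and 3 lower (Fgfr3 by -1.05), and of 21 cell cycle genes 3 could be tested, with Stmn1 lower by -0.54. Markers of other cell types moved as well. The 10 club and ciliated markers summed to 3632 to 4527 CPM in normoxic and 1589 to 2608 CPM in hyperoxic mice at P14, while their medians were 1898 and 2073 CPM at P3 and 1676 and 1819 CPM at P7. At P14 most of the sum came from Cbr2, a carbonyl reductase, and Scgb1a1, a club cell secretory protein. Scgb1a1 was seen in 91.5% of gCap cells as well. Cbr2 had medians of 3265 CPM in normoxia and 1140.2 CPM in hyperoxia at P14, and how much of it the members made themselves was not tested. Foxj1 was at 0 in every normoxic P3 mouse and Tmem212 in every hyperoxic P14 mouse. Tppp3 fell by -1.15 and Cyp2f2 rose by 0.77. The 15 blood and immune markers summed to 29.9 to 230 CPM in hyperoxic and 53.8 to 3067 CPM in normoxic mice, the highest being 1 normoxic P7 mouse, and C1qa and Cd3e were at 0 in every normoxic P3 mouse. Hbb-bs, of red cells, fell by -2.49. The 12 endothelial and stromal markers summed to 105 to 270 CPM and 107 to 241 CPM, with Inmt at 0 in every P3 mouse, and Mgp fell by -0.46. The part of these markers in the results above was not tested.

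The response to oxygen differed between the ages. Exposure ran from the day of birth to the day of harvest, so age and length of exposure cannot be told apart. The difference between the effects at P14 and P3 was called for 247 genes (4.51%), with 118 differences upwards (2.16%) and 129 downwards (2.36%). Between P14 and P7 it was called for 221 (4.04%), 102 upwards (1.86%) and 119 downwards (2.17%), and between P7 and P3 for 6 (0.11%), 4 upwards (0.0731%) and 2 downwards (0.0365%). These 3 comparisons share mice. All 6 calls between P7 and P3 were lost without possible doublets, and also without hyperoxic P7 mouse 2. Without that mouse 138 genes were called between P14 and P7. The genes named further below for the difference between P7 and P3 kept their direction in both settings. From P3 to P14 the effect grew upwards for Clu (by 3.19 ± 0.42), Slpi (2.83 ± 0.54), Lcn2 (2.64 ± 0.38), G0s2, an inhibitor of fat breakdown (2.75 ± 0.52), and Mif (1.44 ± 0.21), and downwards for Acoxl (-2.35 ± 0.38), Meg3 (-1.55 ± 0.27) and Id3 (-1.45 ± 0.37). Epha4, an ephrin receptor, reversed. It ranged from 38.5 to 85.6 CPM in normoxia and 11.5 to 57.8 CPM in hyperoxia at P3, and from 5.86 to 24.9 CPM and 42.9 to 139 CPM at P14, a change of -1.0 ± 0.27 and of 2.33 ± 0.29. The groups overlapped at P3 and were apart at P14, and the difference of the effects was 3.33 ± 0.40 (adjusted p = 4.05e-07). Of the 20 tested NRF2 genes 1 differed between P14 and P3, Me1, where 4.51% of all tested genes did.

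Genes of MHC class II were lower in hyperoxia at P7 and higher at P14. Cd74, the invariant chain that guides MHC class II, ranged from 608 to 900 CPM in normoxia (median 805) and 241 to 731 CPM in hyperoxia (median 531) at P3, from 1790 to 2578 CPM (median 2309) and 668 to 1695 CPM (median 1221) at P7, and from 833 to 1775 CPM (median 1189) and 1784 to 2773 CPM (median 2242) at P14. At P7 every hyperoxic mouse was below every normoxic one, and at P14 every hyperoxic mouse was above. Its log2 change went from -0.60 ± 0.18 (P3) and -0.83 ± 0.18 (P7) to 0.85 ± 0.18 (P14) (adjusted p = 0.0308, 0.00128 and 0.000344).

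H2-Ab1, a chain of MHC class II itself, ranged from 202 to 396 CPM in normoxia and 43.1 to 188 CPM in hyperoxia at P7 and from 146 to 340 CPM and 363 to 682 CPM at P14, again apart in opposite directions, with a change of -1.38 ± 0.24 and 1.10 ± 0.24. H2-Aa and H2-Eb1 moved by -1.15 and -1.02 at P7 and by 0.81 and 0.76 at P14, all called; the P14 call of H2-Aa was lost without hyperoxic mouse 3 or 4 (adjusted p = 0.0845 and 0.0743). Of the 11 tested antigen presentation and interferon genes 5 were lower and 1 higher at P7, where 4.04% of all tested genes were called lower and 5.21% higher. At P14 9 were higher and 0 lower, where 11.7% of all were called higher, and the effect differed upwards between P14 and P7 for 8, against 1.86% of all. B2m and Bst2 rose over all ages, by 0.78 and 1.06, and Irf1 fell by -0.81.

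The effect on Creg1 was larger at P3 than at P14. Creg1, a glycoprotein of lysosomes, ranged from 101 to 140 CPM in normoxia and 384 to 467 CPM in hyperoxia at P3, from 124 to 182 and 288 to 447 CPM at P7 and from 189 to 228 and 279 to 463 CPM at P14. Its groups did not overlap at any age, and its log2 increase went from 1.92 ± 0.14 (P3) over 1.40 ± 0.13 (P7) to 0.76 ± 0.13 (P14), with a difference between P14 and P3 of -1.17 ± 0.19 (adjusted p = 6.44e-05). Efna1, an ephrin, fell at P3 by -1.47 ± 0.26 and stood at 0.18 ± 0.22 at P7, a difference of 1.65 ± 0.34 (adjusted p = 0.0136) whose call was lost without hyperoxic P7 mouse 2 (1.49, adjusted p = 0.0609). Mt2, a metallothionein, rose at every age, by 1.76, 0.89 and 1.34. S100a6 and Nnat were called lower at P3, by -1.90 ± 0.34 and -1.67 ± 0.39, and not at P7 or P14. For Mt2, S100a6 and Nnat the difference between P14 and P3 was not called (adjusted p = 0.636, 0.0565 and 0.302).

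**Figure D5:**
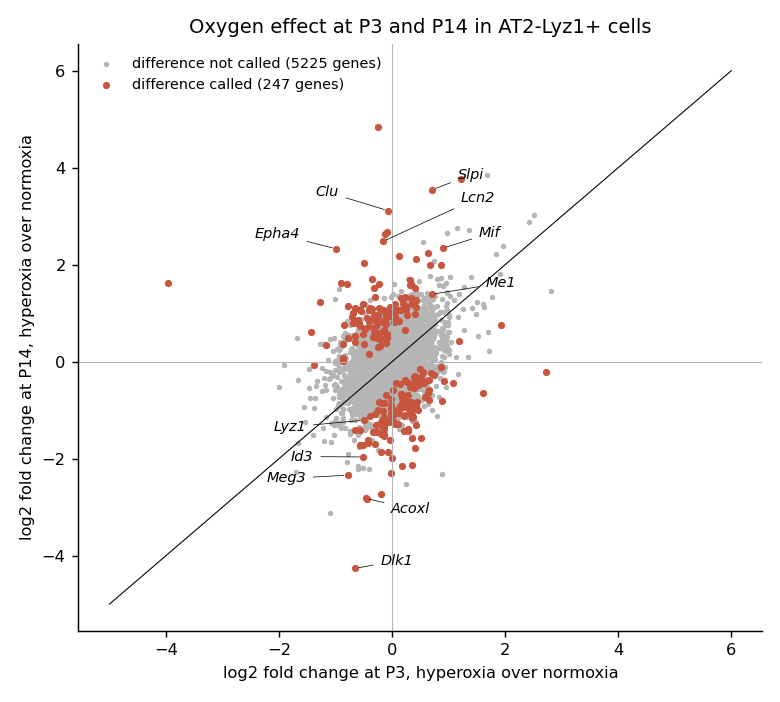
Log2 fold change of hyperoxia over normoxia at P3 (x) and P14 (y) for 5472 genes in AT2-Lyz1+ cells; red points are the 247 genes whose effect differed between the ages, and the line marks equal effects. Clu, Lcn2 and Slpi lie far above the line, Acoxl, Meg3 and Dlk1 far below it, and Epha4 changes sign.

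In normoxia most changes with age lay between P7 and P14. From P3 to P7 66 genes were called (1.21%), 26 higher (0.475%) and 40 lower (0.731%). With the pool as a replicate block 53 were called, of which 25 are among the 66, so most of these calls depend on the block. From P7 to P14 792 were called (14.5%), 396 higher and 396 lower (7.24% each), and from P3 to P14 529 (9.67%), 258 higher (4.71%) and 271 lower (4.95%). Age and pool cannot be told apart for P14. From P3 to P14 Apoe, an apolipoprotein, rose by 1.95 ± 0.23, from 162 to 250.2 CPM to 471 to 988 CPM without overlap. Glul, glutamine synthetase, rose by 1.86 ± 0.27, Lrg1 by 1.77 ± 0.27, Atp7b, a copper pump, by 1.76 ± 0.23 and H2-Ab1 by 1.89 ± 0.29. Lower at P14 were Dlk1, Aqp3 (-3.32 ± 0.59), Col6a2, a collagen VI chain (-2.39 ± 0.31), S100a6 (-2.09 ± 0.36), Cdkn1c, an imprinted brake of the cell cycle (-1.89 ± 0.40), and Areg, amphiregulin (-1.65 ± 0.33). Lyz1, a gene the clustering used, stood lower at P14 by -0.42 ± 0.13, as a description with no test.

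Of 15 genes of fatty acid and phospholipid synthesis 6 rose from P3 to P14 in normoxia, where 4.71% of all tested genes did, and 0 fell, with a median of 0.43 against -0.02 over all genes. The list holds Acoxl, and without it 5 of 14 rose. Scd1, stearoyl-CoA desaturase, went from 561 to 1302 CPM at P3 to 1194 to 2437 CPM at P14, with overlap, and rose by 1.25 ± 0.18. Srebf1, the factor that drives lipid synthesis, rose by 0.61 ± 0.17, Fasn by 0.43 ± 0.15, Chka by 0.60 ± 0.14 and Acoxl by 1.36 ± 0.22. Abca3 and Slc34a2, a phosphate carrier of AT2 cells, rose by 0.38 ± 0.11 and 0.70 ± 0.08, while Napsa fell by -0.41 ± 0.09.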

How the data were processed

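Lungs of 36 mice were dissociated and single cells labelled by MULTI-seq and sequenced with 10x chemistry. Per the labels and the study's methods, the authors aligned reads with Cell Ranger 3.0.2 to the mm10 genome, assigned cells to mice with deMULTIplex, kept cells with over 200 genes and at most 20 percent mitochondrial UMIs, removed contaminating clusters and clustered the rest with Seurat. The authors deposited UMI counts per gene and cell, the percent of mitochondrial UMIs per cell and an annotation with age, oxygen level, sample barcode and cell type, all of which were used as deposited. They also deposited counts of the MULTI-seq sample barcodes, in which the assigned barcode was the highest for 1457 of the 1482 members.

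The members were the cells of the annotated type AT2-Lyz1+. Members, gene lists and comparisons were chosen with earlier results of these data known. Counts were summed per mouse, and the mouse was the replicate. Mice with at least 10 members entered the fits (R 4.3.3, edgeR 4.0.16, TMM scaling, filterByExpr, quasi-likelihood test, Benjamini-Hochberg adjustment over all tested genes), with a group for each age and oxygen level, or age as a covariate over all ages. A called gene had an adjusted p under 0.05 and was seen in 10% or more of the cells of either level compared. Levels are CPM (UMIs scaled to a common total per mouse), and differences of level between types are on log2(CPM + 10), which understates the change of low genes. Shares and UMIs per cell were compared with the exact two-sided permutation test, whose smallest p with 6 mice against 6 is 0.00216. Scripts were tested on simulated data.

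The genes named were the 3 markers, genes the study names for AT2 cells, the called genes with the largest changes at an average log2 CPM of at least 5, up to 4 genes of each list, and the genes with the largest difference between the types. Xist and Y-linked genes were left out of the largest changes and differences, since the sex of single mice was not used. The study gives unequal numbers of the sexes at P3 and P7 as a limitation, and the part of sex in the results was not tested. Further genes named from the lists were chosen after their values were seen. The list of cholesterol genes is not reported here. Alternatives were DESeq2 1.42.0, low counts left unfiltered, a block for the pool, at least 25 cells per mouse, 10 cells drawn per mouse, cells thinned to 1000 UMIs, possible doublets left out and each hyperoxic mouse of P7 and P14 left out. No doublet caller was run. Pools and mice carry no replicate number that pairs mice. Across groups, the deviations of mice of one pool had a median correlation of 0.07 over 84 pairs, against -0.02 over 397 pairs of different pools. With the pool as a block 534 genes were called at P3 and 725 at P7, against 362 and 506 without it. Sequences are from RefSeq for GRCm38.p6 and gene positions from GENCODE for GRCm38. Python 3.11.15 with NumPy 2.4.6, SciPy 1.17.1, pandas 2.3.3 and matplotlib 3.10.9 did the rest.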

Additional observations from a re-analysis of the deposited data

Results flagged for a closer look

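In 17 of 216 groups of 5 or 6 mice the highest or lowest mouse stood apart from the rest by Dixon's criterion at the 95% level, where chance gives about 5% of groups. Among the 6 normoxic P3 mice, AT2-Lyz1+ cells made up 12.9% of both AT2 types in mouse 2 and 29.0 to 33.9% in the others. In the same group Clu was at 125 CPM in mouse 1 (25.5 to 56.8 in the others), Cox6a2 at 83.0 CPM in mouse 3 (21.5 to 32.8), Hdc at 179 CPM in mouse 1 (53.8 to 94.2), Itgb1 at 274 CPM in mouse 2 (144 to 176), Klf2 at 111 CPM in mouse 2 (28.1 to 56.8) and Sftpc at 236284 CPM in mouse 4 (241825 to 244684). Among hyperoxic P3 mice Dag1 was at 148 CPM in mouse 1 (109 to 122), Hdc at 141 CPM in mouse 3 (6.80 to 44.9), Itgb1 at 92.0 CPM in mouse 5 (163 to 181) and Klf2 at 27.2 CPM in mouse 4 (12.6 to 17.6). At P7 Mif was at 340 CPM in normoxic mouse 5 (213 to 252), and under hyperoxia Clu was at 178 CPM in mouse 3 (70.1 to 96.5), Lcn2 at 6944 CPM in the same mouse (1169 to 2435) and Itgb1 at 97.8 CPM in mouse 6 (145 to 165). At P14 normoxic mouse 5 had Gdf15 at 37.1 CPM (4.97 to 14.6) and Lcn2 at 2273 CPM (840 to 919.7).

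The effect of hyperoxia differed between ages for the following genes, by the interaction term in edgeR over 34 mice. Between P14 and P3 the log2 effect was larger by 3.33 for Epha4, 3.19 for Clu, 2.83 for Slpi, 2.75 for G0s2, 2.64 for Lcn2, 2.55 for Aqp3 and 1.44 for Mif. It was smaller, with a difference of -3.61 for Dlk1, -2.48 for Ttc28, -2.38 for Auts2, -2.35 for Acoxl, -2.32 for Sec14l3, -2.27 for Myh7, -1.55 for Meg3, -1.45 for Id3 and -0.70 for Lyz1. The value for Lyz1, a gene the clustering used, is a description with no test. Acoxl also marks the cluster, so for it a change per cell and a shift of cells between the types cannot be told apart. Dlk1 was listed at 0 in most hyperoxic P14 mice, so the size of its difference depends on the prior count. Without hyperoxic P14 mouse 6 the calls of Aqp3, Dlk1 and Myh7 were lost (adjusted p = 0.0742, 0.0944 and 0.0858), and those of Dlk1 and Myh7 also without mouse 1, 4 or 5. Aqp3 and Dlk1 lost theirs without possible doublets as well (edgeR, adjusted p = 0.127 and 0.104). In mice with at least 25 cells Dlk1 and Myh7 were not called (edgeR, adjusted p = 0.212 and 0.132). Between P14 and P7 the difference was 2.64 for Hspa1b, 2.48 for H2-Ab1, 2.33 for Epha4, 2.09 for H2-DMa, 2.04 for G0s2 and 1.96 for H2-Aa, and -2.70 for Scnn1a, -2.45 for Auts2, -2.34 for Rgcc, -2.32 for 1810010H24Rik, -1.98 for Glul and -1.94 for Cst8. Hspa1b lost its call without possible doublets and without any of hyperoxic P7 mice 2, 4 and 6 and P14 mice 4, 5 and 6, and was 1.74 without P14 mouse 6 (adjusted p = 0.26). Between P7 and P3 it was 1.78 for Lcn2, 1.65 for Efna1, 1.37 for Tspan1, 1.09 for Msn and -1.67 for Plk2. These 5 calls were lost without possible doublets and without hyperoxic P7 mouse 2, and Lcn2 was 1.16 without hyperoxic P7 mouse 3 (adjusted p = 0.199).

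Between AT2-Lyz1+ and AT2 cells the effect differed by 1.81 for Lyz1, which separates the types and so gives no test here. The other differences were 0.39 for Lyz2, 0.25 for Sftpa1, 0.23 for Fabp5, -1.12 for S100a6 and -0.68 for Igfbp7. The mouse was a block in each. Fabp5, S100a6 and Igfbp7 also differ in level between the types, so for them a change per cell and a shift of cells cannot be told apart.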

How the results depend on the processing

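With 10 cells drawn per mouse, 483 of 1886 tested genes were called over all ages (25.6%), and 65, 94 and 340 for the ages P3, P7 and P14. With every cell thinned to 1000 UMIs, where 581 genes could be tested, the counts were 149, 49, 62 and 116. Both AT2 types summed gave 3477 of 9456 over all ages (36.8%). In mice with at least 25 cells 695 genes were called at P14. The difference between P14 and P3 was called for 130 genes with at least 25 cells, 23 with 10 cells, 25 when thinned and 161 without possible doublets, and that between P14 and P7 for 88, 19, 27 and 143. The difference between P7 and P3 was called for 25 genes with no filter on low counts, 2 with at least 25 cells, 1 with 10 cells, 2 when thinned and 0 without possible doublets (edgeR, 299 at an unadjusted p under 0.05; DESeq2 on all members called 5). In normoxia the counts from P3 to P7 were 112 with no filter, 42, 11, 12 and 39, from P7 to P14 112 with 10 cells and 79 when thinned, and from P3 to P14 75 and 66. The interaction with type was called for 16 genes with no filter, 1 without the mouse block and 0 with 10 cells (89 at an unadjusted p under 0.05 in edgeR; DESeq2 on all cells called 4).

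With the pool as a replicate block, 334 genes differed between P14 and P7 and 11 between P7 and P3, and the other counts stayed within 1.5 times. In normoxia from P3 to P7 the block called 53 genes, 25 of them among the 66 called without it. Comparisons of P14 with other ages in normoxia could not be fitted with that block. When oxygen labels were exchanged between mice of the same pool (a replicate block), UMIs per cell at P3 differed by 2336 as before and were now called, with an adjusted p of 0.005 in the exact permutation test. With no filter on low counts the split of calls over all ages was 862 higher and 542 lower, and at P7 375 and 165; thinned, the normoxic split from P3 to P14 was 50 and 16.

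Each hyperoxic P7 and P14 mouse was left out in turn. Counts ranged from 1415 to 1560 over all ages, 353 to 368 at P3, 363 to 537 at P7, 1008 to 1245 at P14, 187 to 267 for P14 against P3, 138 to 265 for P14 against P7, 0 to 6 for P7 against P3 and 5 to 8 for the types. Without hyperoxic P7 mouse 2 they were 138 for P14 against P7 and 0 for P7 against P3 (363 at an unadjusted p under 0.05). In normoxia the ranges were 70 to 80, 775 to 797 and 513 to 535.

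Against epithelial cells the share at P7 reversed to -0.764 points. It differed by -5.75 at P14 (exact permutation test, adjusted p = 0.0487) and by 2.39 from P3 to P7 in normoxia, where it was 1.53 against both AT2 types and -8.27 from P7 to P14. edgeR on cell numbers gave log2 folds of -1.03 from P7 and -0.93 from P3 to P14 in hyperoxia, both called (adjusted p = 0.0047 and 0.00857), where the exact permutation test called neither. Age and pool cannot be told apart in the changes to P14, nor can cell shares and Lyz1 per cell in any of these. Lyz2, not called, changed sign with no filter (0.017), without the shared pool (0.059) and without hyperoxic P7 mouse 4, its values without single mice running from -0.0774 to 0.0052. With both AT2 types summed Lyz2 was called lower, at -0.317 (edgeR, adjusted p = 0.000271). Of 3289 other values for 166 named results 3184 kept direction and call, 99 lost the call and 3 gained it; DESeq2 gave 3 more no adjusted p. The causes of these changes were not tested.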
